A study of Mus musculus with 18 samples.

Results

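The nuclear genes of oxidative phosphorylation were described in whole liver, kidney and lung of mice that overexpressed Ccne1, the gene of cyclin E1. A gene belonged to the set when its symbol began with Nduf followed by a, b, c, s or v, with Cox4 to Cox8, with Uqcr or with Atp5. Of the 24062 gene symbols in the count table, 88 met this rule. They were 7 core and 29 accessory subunits of complex I, 7 assembly factors of complex I, 8 subunits of complex III, and 11 common subunits of complex IV. The others were Cox7a2l, 8 tissue isoforms of complex IV subunits, 5 subunits of the F1 part and 10 of the FO part and stalk of complex V, and the 2 genes Atp5s and Atp5sl, which are not subunits.

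All mice were C57BL/6, 4 months old, and had received doxycycline since the age of 3 weeks. CCNE-TA mice carried a Tet-inducible Ccne1 transgene and the rtTA activator, and TA mice, the controls, carried rtTA alone. The promoter that drives rtTA is not given in the sources used here. Each of the 3 tissues had 3 libraries of each genotype, numbered 1 to 3, which made 18 libraries. Nothing in the labels says whether libraries of 1 group came from separate animals, so p-values measure the spread between these libraries, which may be technical. Values per library are CPM, read counts relative to the library total after scaling by edgeR's TMM factors within a tissue.

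Oxidative phosphorylation couples the oxidation of NADH and succinate to the synthesis of ATP in the inner mitochondrial membrane. Electrons pass from complex I or complex II through complex III and cytochrome c to complex IV, and ATP synthase, complex V, uses the resulting proton gradient. Most subunits are encoded in the nucleus, a few in mitochondrial DNA; the mitochondrially encoded ones were not analysed here. Proximal tubule cells of the kidney and hepatocytes are rich in mitochondria. Several small complex IV subunits exist as a common form and as a form known from particular tissues: Cox6a2, Cox7a1 and Cox8b from heart, skeletal muscle and brown fat, Cox6b2 from testis, and Cox4i2 from lung.

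The libraries held 20352770 to 155323865 counts. Summed markers fitted each labelled tissue: 7 hepatocyte genes reached 92890 CPM or more in every liver library, 8 kidney tubule genes 21190 CPM or more in every kidney library, and 6 lung epithelium genes 48330 CPM or more in every lung library. Ccne1 was at 210 to 353 CPM in CCNE-TA liver against 2.05 to 2.82 CPM in TA liver. It was at 485 to 897 against 1.57 to 2.58 CPM in kidney, and at 65.7 to 126 against 1.04 to 6.02 CPM in lung, so the groups did not overlap in any tissue. Small amounts of other tissue were visible: 9 skeletal muscle genes summed to 110 CPM in liver CCNE-TA 3 and to 243 and 80.5 CPM in liver TA 2 and TA 3, against at most 11.99 CPM in the other 3 livers. In a whole tissue, fewer cells of a type and less RNA per cell cannot be told apart.

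The start regions of 5 genes are shown because these genes carry the main contrasts below: Ndufa5 and Ndufb4, accessory complex I subunits that rose in liver, Atp5b, the catalytic beta subunit of complex V, which stood lower there, and the isoform pair Cox6b1 and Cox6b2. Each run is 300 bases, 250 before and 50 after the start, from RefSeq on build GRCm38.p6 (mm10), 5′ to 3′ on the gene's strand. The intervals are chr6:24527477-24527776 (minus strand, the first of 2 listed starts) for Ndufa5, chr16:37654319-37654618 (minus) for Ndufb4, chr10:128083057-128083356 (plus) for Atp5b, chr7:30626065-30626364 (minus) for Cox6b1 and chr7:4753045-4753344 (minus) for Cox6b2. Capitals mark matches, on either strand, to the core motifs of 3 factors known to act on respiratory genes: CGCANGCGC (NRF1), CCGGAAG (GABP) and AAGATGGCG (YY1).
Ndufa5: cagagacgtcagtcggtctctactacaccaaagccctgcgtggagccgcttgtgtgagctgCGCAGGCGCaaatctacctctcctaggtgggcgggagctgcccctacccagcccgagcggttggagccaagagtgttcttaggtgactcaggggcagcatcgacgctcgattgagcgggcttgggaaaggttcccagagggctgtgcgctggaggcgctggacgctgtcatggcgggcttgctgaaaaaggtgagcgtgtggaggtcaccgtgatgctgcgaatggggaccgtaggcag
Ndufb4: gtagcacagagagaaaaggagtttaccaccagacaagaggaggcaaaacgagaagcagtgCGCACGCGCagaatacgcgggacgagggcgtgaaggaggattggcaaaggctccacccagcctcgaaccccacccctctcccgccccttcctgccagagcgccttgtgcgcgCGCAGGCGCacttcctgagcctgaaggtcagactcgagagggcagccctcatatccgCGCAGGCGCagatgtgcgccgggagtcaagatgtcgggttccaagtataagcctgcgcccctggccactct
Atp5b: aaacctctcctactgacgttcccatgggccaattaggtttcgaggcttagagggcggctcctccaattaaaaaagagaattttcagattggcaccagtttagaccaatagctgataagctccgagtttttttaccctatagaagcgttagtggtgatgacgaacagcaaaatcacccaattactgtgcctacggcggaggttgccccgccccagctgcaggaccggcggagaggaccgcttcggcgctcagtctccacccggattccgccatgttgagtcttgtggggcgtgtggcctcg
Cox6b1: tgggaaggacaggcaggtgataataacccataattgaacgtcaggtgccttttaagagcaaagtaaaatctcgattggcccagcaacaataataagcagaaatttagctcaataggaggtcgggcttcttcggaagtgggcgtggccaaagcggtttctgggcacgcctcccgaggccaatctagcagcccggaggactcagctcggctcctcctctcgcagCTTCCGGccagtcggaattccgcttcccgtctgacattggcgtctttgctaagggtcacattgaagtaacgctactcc
Cox6b2: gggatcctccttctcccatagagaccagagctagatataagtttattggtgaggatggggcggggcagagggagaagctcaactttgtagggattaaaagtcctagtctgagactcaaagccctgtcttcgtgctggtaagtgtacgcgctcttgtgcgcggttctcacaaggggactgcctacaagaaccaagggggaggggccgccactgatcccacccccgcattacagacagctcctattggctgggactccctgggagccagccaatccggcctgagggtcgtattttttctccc
The Ndufa5 window held 1 and the Ndufb4 window 3 matches of the NRF1 motif, the Cox6b1 window held 1 match of the GABP motif, and the Atp5b and Cox6b2 windows held no match of the 3.

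Start regions were listed for 70 of the 88 genes. The NRF1 motif was in 23 of these 70 genes (32.9%), against 9.68% of 17492 protein-coding genes with a listed start region and 14.3% of the 10397 of them that were tested in liver. The GABP motif was in 15 of 70 (21.4%, against 12.9% of the protein-coding and 18.7% of the tested genes), and the YY1 motif in 7 of 70 (10%, against 2.14% and 3.28%). The 3 motifs were searched separately, and a base could belong to more than 1 match. At least 1 motif was found in 18 of the 31 listed genes that rose in liver and in 19 of the 37 listed genes that were tested there and did not rise. A match is a run of letters, not a measured binding site.

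In TA controls the genes were highest in kidney, intermediate in liver and lowest in lung. The summed level of all 88 genes, scaled over the 18 libraries, was 24920, 34220 and 35450 CPM in kidney TA libraries 1 to 3, 18320, 21410 and 21030 CPM in liver and 6022, 5676 and 5235 CPM in lung. The 3 tissues did not overlap, although kidney TA 1 stood well below the other 2 kidney libraries. Per length (RPKM, the CPM scaled over the 18 libraries and divided by the median length of the gene's transcripts in kilobases), the highest gene in liver was Atp5b at 1247 ± 95.7 RPKM (SD, n = 3), followed by Ndufa4, a complex IV subunit once assigned to complex I, at 1056 ± 149 RPKM. Next in liver came Atp5g3, which encodes the membrane ring subunit c, at 949 ± 63.1 RPKM, Cox6a1 at 821 ± 70.8 RPKM and Uqcrq, a small complex III subunit, at 811 ± 99.3 RPKM. These neighbours lay within each other's spread except for Atp5b, whose lowest library (1170 RPKM) was above the highest of Ndufa4 (1148 RPKM).

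In kidney the order was different: small complex IV subunits led. Cox8a was at 1717 ± 413 RPKM (SD, n = 3), Cox6c at 1677 ± 77.8 RPKM, Cox6a1 at 1619 ± 365 RPKM, Atp5e at 1572 ± 174 RPKM and Cox6b1 at 1436 ± 79.7 RPKM. In lung the 5 highest genes were nearly level, Uqcrh at 255 ± 51.5 RPKM, Cox8a at 253 ± 42.7 RPKM, Cox6a1 at 248 ± 29.4 RPKM, Ndufa4 at 247 ± 30.3 RPKM and Cox4i1 at 235 ± 23.7 RPKM. Within kidney and within lung, each of these genes overlapped its neighbour in the order.

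Of 85 genes tested between TA lung and TA kidney, 79 were lower and 3 higher in lung (edgeR adjusted p under 0.05), with a median log2 difference of -2.58. Over all 16578 genes, 29.3% were lower and 31.3% higher in lung, with a median of 0.05. Cox5b, a zinc-binding complex IV subunit, was lower in lung by the widest margin among the 4 genes of smallest p, with a log2 difference of -3.64 (SE 0.19, adjusted p = 4.4e-07 by edgeR). Ndufs8, a core subunit that carries iron-sulfur clusters, was at 302 to 342 RPKM in kidney, 112 to 138 RPKM in liver and 29.6 to 34.6 RPKM in lung. Its log2 difference of lung against kidney was -3.35 (SE 0.17, adjusted p = 3.7e-07 by edgeR). The 3 genes higher in lung were the isoforms Cox4i2, Ndufa4l2 and Cox6a2.

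Between TA liver and TA kidney, 64 of 85 genes were lower and 3 higher in liver, with a median log2 difference of -0.93. Over all genes 34.5% were lower and 30.5% higher in liver, with a median of -0.13. Ndufa12, an accessory subunit of the matrix arm, was lower in liver by -1.67 (SE 0.15, adjusted p = 5.4e-06 by edgeR) and Ndufb4 by -1.96 (SE 0.20, adjusted p = 1.7e-05), both on the log2 scale. The 3 genes higher in liver were Ndufaf1, Cox7a2l and Ndufs1. All 3 lost the call under upper quartile scaling, which lowered the median of all genes in this contrast to -0.43 and that of the 85 genes to -1.23. With a correction for transcript length and GC content, described below, 50 of 85 were lower and 2 higher in liver, at a median of -0.58. Over all 16578 genes, 5764 were then lower and 4966 higher, at a median of -0.12. Between TA liver and TA lung, 74 of 85 genes were higher and 6 lower in liver, with a median of 1.64, against 34.7% higher and 36.9% lower over all genes. Those 6 were the tissue isoforms tested. With the length and GC correction 73 were higher and 6 lower in liver than in lung, at a median of 1.54. Between lung and kidney 78 were then lower and 3 higher in lung, at a median of -2.05. The 3 contrasts share control libraries and are not independent of each other.

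In liver, 36 of the 83 genes tested rose in CCNE-TA against TA and 2 fell. The median log2 fold change was 0.53 and 70 of 83 were positive, while over all 13811 genes 13.7% rose and 14.8% fell around a median of 0.02. Of the 36 genes that rose, 21 had transcripts under 700 nucleotides, and the 2 that fell were Ndufs1 and Cox7a2l. Not tested in liver were Ndufs5, listed at 0 in all 18 libraries, and the isoforms Cox4i2, Cox6a2, Cox7b2 and Cox8c.

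**Figure D1:**
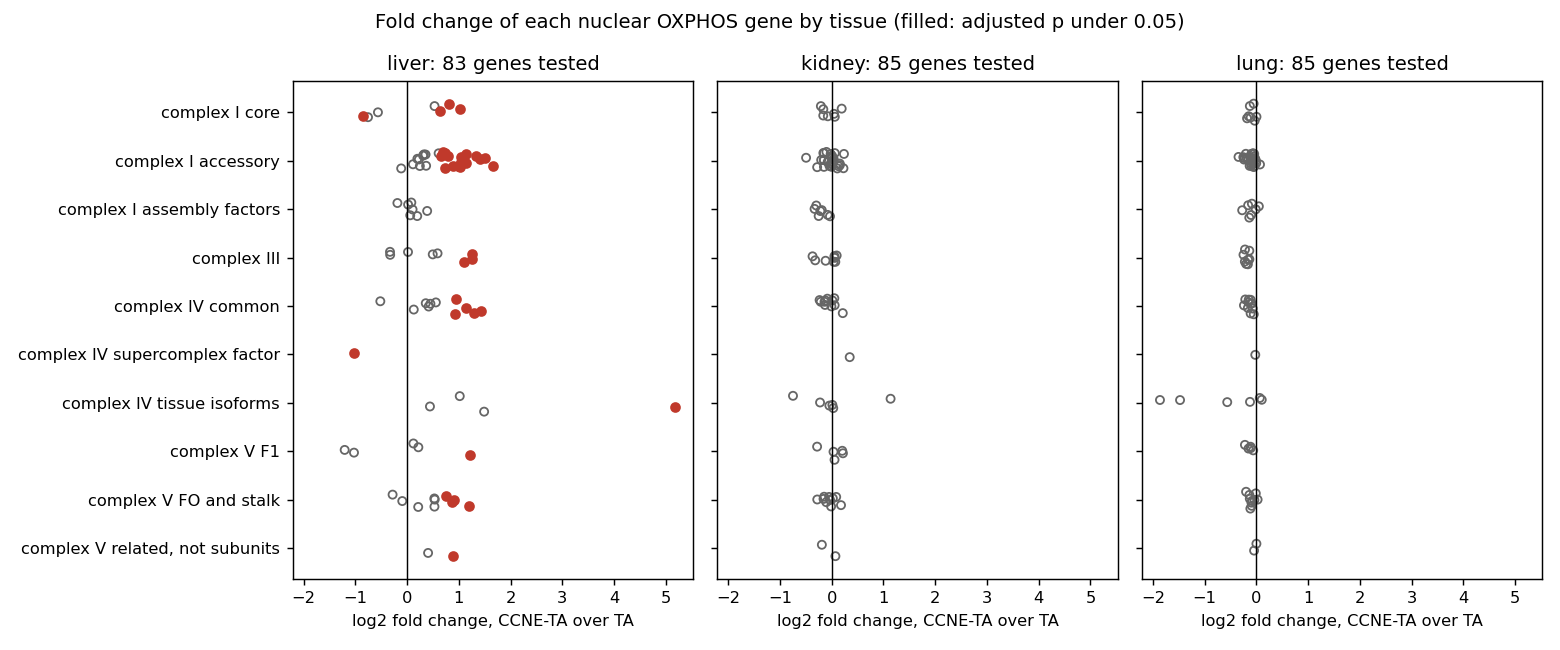
Log2 fold change of CCNE-TA over TA for each gene tested, by role (rows) and tissue (panels), filled where the edgeR adjusted p was under 0.05. In liver 36 points on the right and 2 on the left are filled, and in kidney and lung none is.

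Accessory subunits of complex I, which surround the catalytic core and stabilise it, moved most uniformly: 18 of 28 tested rose, none fell, and the median was 0.75. With the length and GC correction described below, only Ndufa3, Ndufa5, Ndufb2, Ndufb4 and Ndufc1 of these kept the call, and Ndufab1 gained it. Ndufa5 (chr6:24518666-24528013, minus strand) was at 111, 82.5 and 160 CPM in CCNE-TA livers 1 to 3 and at 32.3, 39.6 and 40.2 CPM in TA livers. Every CCNE-TA liver was above every TA liver, and the log2 fold change of 1.66 (SE 0.26, adjusted p = 0.0057 by edgeR) was the highest of any common subunit. Ndufb4 (chr16:37647170-37654453, minus strand), a membrane arm subunit, was at 177, 124 and 206 CPM against 54.6, 58.9 and 64.8 CPM, with a log2 fold change of 1.51 (SE 0.23, adjusted p = 0.0051 by edgeR). Ndufa3, also of the membrane arm, was at 154, 116 and 160 CPM against 52.2, 55.3 and 54.1 CPM, a log2 fold change of 1.41 with the smallest adjusted p of the set, 0.0037 by edgeR. In all 3 genes CCNE-TA liver 2 was the lowest of its group and still above every control.

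Ndufb7 (log2 fold change 1.32), Ndufa11 (1.15), Ndufc1 (1.14) and Ndufb2 (0.97) followed, with edgeR adjusted p from 0.0050 to 0.0071. Ndufb7 and Ndufa11 lost the call with the length and GC correction. At the other end, Ndufb9 was at 186, 253 and 117 CPM against 170, 210 and 223 CPM, and the groups overlapped fully.

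The 7 core subunits of complex I, which hold the flavin and the iron-sulfur clusters, did not move as 1 group: 3 rose and 1 fell. Ndufs8 was at 147, 114 and 167 CPM against 62.5, 69.9 and 78.8 CPM, with a log2 fold change of 1.02 (SE 0.21, adjusted p = 0.012 by edgeR). Ndufs7 and Ndufv2 rose by 0.80 and 0.63 on the log2 scale. Ndufs1 (chr1:63143596-63176833, minus strand), the largest core subunit, was at 67.2, 77.2 and 50.2 CPM against 104, 128 and 118 CPM. It fell by 0.85 on the log2 scale (SE 0.21, adjusted p = 0.021 by edgeR) without overlap between groups. This call was lost when CCNE-TA 1, TA 2 or TA 3 alone was left out. Over the 14 alternatives the log2 fold change ran from -1.0 to -0.665. None of the 7 complex I assembly factors passed the test, at a median of 0.08 and a range from -0.19 (Ndufaf4) to 0.39 (Ndufaf5); 0 of the 7 had an unadjusted p under 0.05 by edgeR.

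In complex III, 3 of 8 subunits rose and none fell, at a median of 0.54. Uqcrq (chr11:53427922-53430831, minus strand) was at 622, 466 and 589 CPM against 199, 249 and 258 CPM, a log2 fold change of 1.25 (SE 0.23, adjusted p = 0.0092 by edgeR). Uqcr11 and Uqcrb, also small subunits, rose by 1.24 and 1.09. The 2 large core proteins were not called: Uqcrc1 was at 224, 305 and 162 CPM against 248, 310 and 311 CPM, and Uqcrc2 at 253, 324 and 132 CPM against 285, 305 and 300 CPM.

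Of the 11 common complex IV subunits, 5 rose and none fell, at a median of 0.55. Cox7c (chr13:86044816-86046904, minus strand) was at 314, 252 and 332 CPM against 98.5, 114 and 123 CPM, with a log2 fold change of 1.42 (SE 0.21, adjusted p = 0.0050 by edgeR). Cox6c rose by 1.30, Cox6b1 by 1.13, Cox7b by 0.94 and Cox5b by 0.92. Cox5a was the lowest of the group, at 86.8, 145 and 41.8 CPM against 116, 137 and 138 CPM, and its groups overlapped. Cox7a2l, a factor that joins complexes III and IV into supercomplexes, was at 47.6, 84.9 and 34.9 CPM against 103, 119 and 120 CPM and fell by 1.03 (SE 0.31, adjusted p = 0.040 by edgeR). Its call was lost in 8 of 14 alternatives, among them upper quartile scaling, an Xist covariate and the removal of any 1 liver library except CCNE-TA 2 (range of the log2 fold change over all 14: -1.47 to -0.78).

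In complex V, 1 of 5 F1 subunits and 4 of 10 FO and stalk genes rose, and none fell. Atp5e (chr2:174461072-174464105, minus strand), the small epsilon subunit of the stalk, was at 366, 285 and 339 CPM against 128, 144 and 156 CPM, with a log2 fold change of 1.21 (SE 0.21, adjusted p = 0.0075 by edgeR). Atp5b (chr10:128083273-128090391, plus strand) was at 538, 960 and 289 CPM against 1273, 1491 and 1365 CPM. All CCNE-TA livers were below all TA livers, yet CCNE-TA liver 2 was more than 3 times CCNE-TA liver 3, and the log2 fold change of -1.21 (SE 0.41) had an edgeR adjusted p of 0.056. Atp5a1, the alpha subunit of the same catalytic head, was at 500, 798 and 300 CPM against 947 to 1170 CPM, with a log2 fold change of -1.03 (SE 0.36, adjusted p = 0.061 by edgeR). The FO and stalk genes that rose were Atp5j, Atp5h, Atp5l and Atp5j2, by 1.19, 0.90, 0.87 and 0.76. Atp5j shares 16.3% of its exon bases with Gabpa on the other strand. The library kit does not mark strand, so reads there cannot be assigned to 1 of the 2 genes. The same limit holds for other genes of the set with larger overlaps, among them Cox5a (41.7% with Gm26631), Ndufb6 (39.0% with Smim27) and Ndufa13 (30.0% with Tssk6).

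**Figure D2:**
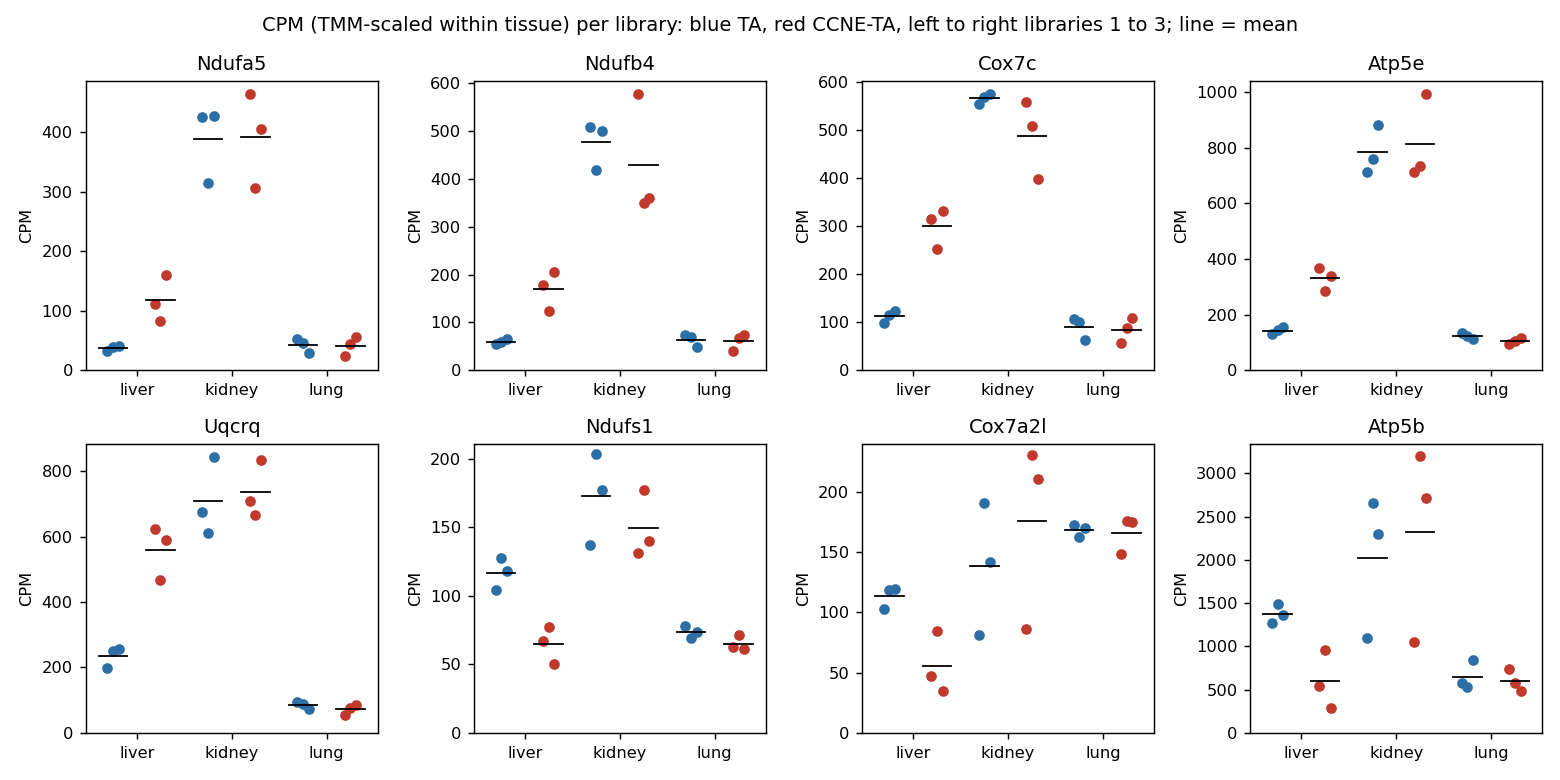
CPM of 8 genes in each of the 18 libraries (TMM scaling within a tissue, axes from 0), TA in blue and CCNE-TA in red, with lines at the group means. In liver Ndufa5, Ndufb4, Cox7c, Atp5e and Uqcrq are higher and Ndufs1, Cox7a2l and Atp5b lower in all 3 CCNE-TA libraries, while kidney and lung groups overlap or nearly do.

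Rises were more frequent among genes with short transcripts, though not limited to them. The median coding transcript of the 88 genes has 744 nucleotides (nt), against 2630 nt for all genes tested in liver. Of 35 genes under 700 nt, 21 rose and none fell, at a median of 0.88; of 31 genes from 700 to 1500 nt, 13 rose and 1 fell, at 0.53; of 17 genes over 1500 nt, 2 rose and 1 fell, at -0.19. The same gradient ran through the whole table: 218 of 437 genes under 700 nt rose and 4 fell, at a median of 0.94, and 1081 of 10944 genes over 1500 nt rose and 1944 fell, at a median of -0.09. Across the 83 genes the log2 fold change and log10 length had a Pearson r of -0.48 and a Spearman rho of -0.52, a description over genes that share the same 6 libraries.

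Each library's dependence on transcript length and GC content was therefore removed with spline offsets in the same edgeR fit. With this correction 11 genes rose and 4 fell, at a median of 0.13 against 0.01 for all genes, of which 9.93% rose and 10.9% fell. Thus the share of higher calls among all calls of the set moved from 36 of 38 to 11 of 15. Of the 11, 10 were among the 36: Ndufa3, Ndufa5, Ndufb2, Ndufb4, Ndufc1, Cox6b2, Cox6c, Cox7b, Cox7c and Atp5j. Ndufab1, the mitochondrial acyl carrier protein, was the added one. Ndufs1 and Cox7a2l still fell, and the flavin-binding core subunit Ndufv1 was now called lower too, at -1.12 on the log2 scale (adjusted p = 0.046 by edgeR). Ndufa5 and Ndufb4 both stayed higher, at 1.17 on the log2 scale (adjusted p = 0.025 and 0.016 by edgeR). No subunit of complex III passed with the correction, 3 of 8 had an unadjusted p under 0.05, and the smallest edgeR adjusted p was 0.055. The correction also removes any change of expression that itself follows length, and the part of length in the result was not tested further.

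**Figure D3:**
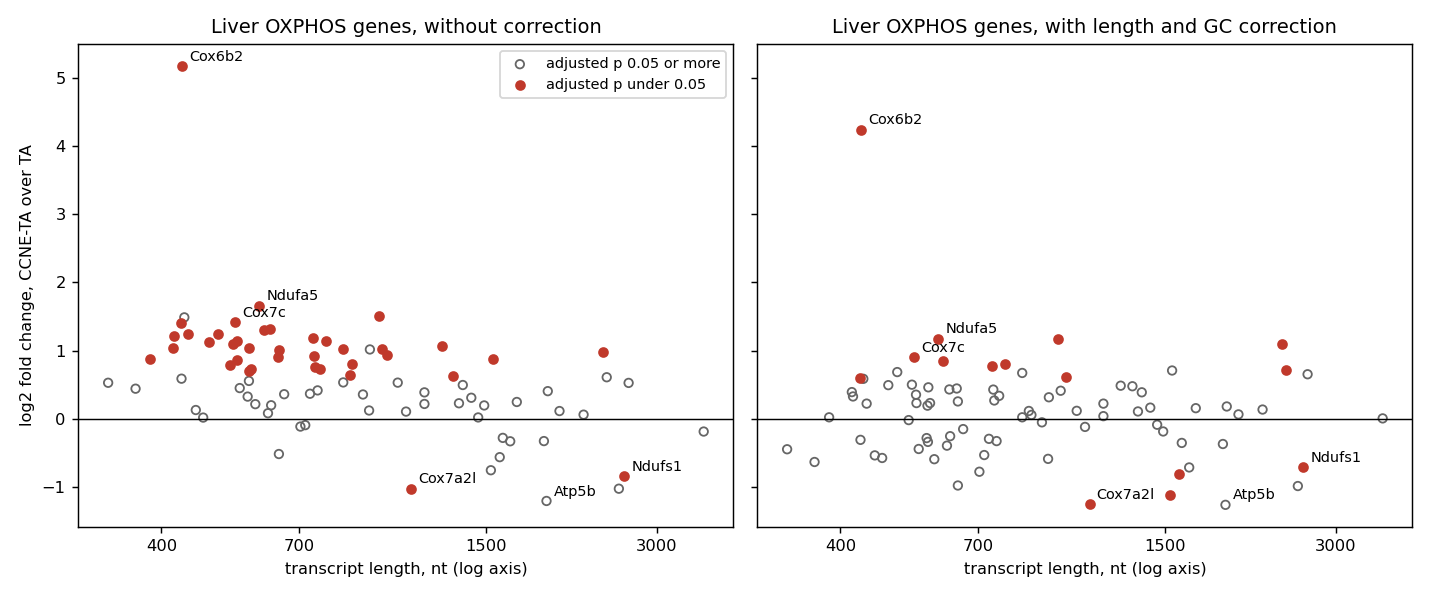
Liver log2 fold change of 83 genes against transcript length (log axis) without (left) and with (right) the length and GC correction, filled where the edgeR adjusted p was under 0.05. On the left 36 genes rose, most of them short; on the right 11 rose and 4 fell, and Cox6b2 stands apart in both.

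The count of 36 changed with the libraries used: it was 22 without CCNE-TA 1, TA 1 or TA 3, 23 without TA 2, 35 without CCNE-TA 2 and 42 without CCNE-TA 3. With TA 1 as the only control, assumed to vary like the other group, none of 85 genes passed with edgeR, 30 had an unadjusted p under 0.05, 74 were positive, and over all genes 20 rose and 71 fell. The libraries differed in other measures too. Xist, the RNA of the inactive X chromosome in females, was at 781, 660 and 3.10 CPM in CCNE-TA livers 1 to 3 and at 402, 0.27 and 0.23 CPM in TA livers, so high-Xist libraries were not equally divided between the groups, and TA 1 was the only such control. With Xist as a covariate 28 genes rose and 1 fell. The 6 pancreatic acinar genes summed to 165 CPM in TA 1, 45.1 CPM in TA 2 and at most 1.45 CPM in the other 4 livers, and the skeletal muscle sums were given above; their part in the count was not tested.

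In kidney, none of the 85 genes tested passed with edgeR, 1 had an unadjusted p under 0.05, and DESeq2 called none. The shares over all 15247 genes were 0.0131% higher and 0% lower. The median log2 fold change was -0.03, 37 genes were positive and 48 negative, and among the 70 common subunits, Cox7a2l counted with them, the values ran from -0.50 (Ndufa10) to 0.35 (Cox7a2l). Ndufa5, the common subunit with the largest rise in liver, was at 464, 305 and 406 CPM in CCNE-TA kidney and at 425, 315 and 426 CPM in TA kidney (log2 fold change 0.01, SE 0.24). The isoform Cox6b2 was the gene with the unadjusted p under 0.05 in this fit, which did not pair libraries. With the library number added as a block (the replicate block), none of the 85 passed with edgeR and 6 had an unadjusted p under 0.05. The 8 genes of proliferating cells summed to 44.4 to 134 CPM in CCNE-TA kidney against 16.6 to 17.9 CPM in TA kidney. In the main kidney fit 0 of the 8 were called. A gene not called in kidney is therefore not shown to be unchanged.

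In lung, none of 85 genes passed with edgeR, 3 had an unadjusted p under 0.05 (Cox8b, Cox7a1 and Ndufb2), and DESeq2 called 2, Cox8b and Cox7a1, both lower. Over all 16823 genes 0.00594% were higher and 0% lower. Ccne1 itself was not called in this lung fit, at a log2 fold change of 4.61 (SE 0.67, adjusted p = 0.90 by edgeR). A gene not called in lung is therefore not shown to be unchanged. The genes leaned to lower values, with 78 of 85 negative at a median of -0.10, while without CCNE-TA 1 the median was 0.05 and 50 of 85 were positive. Without both CCNE-TA 1 and TA 3 the median was -0.05 and 24 of 85 were positive. Ndufb2, an accessory complex I subunit, was at 20.04, 25.1 and 21.5 CPM against 28.6, 26.2 and 29.7 CPM (log2 fold change -0.34, SE 0.14, edgeR adjusted p = 1.0 after rounding).

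The CCNE-TA effect was compared between tissues as an interaction in 1 edgeR fit of all 18 libraries. Liver exceeded kidney in 25 of 85 genes and fell short in none, against 4.78% of all 17155 genes higher and 4.74% lower. Liver exceeded lung in 24 of 85 and fell short in none, against 6.23% higher and 6.51% lower over all genes. Among the 4 genes of smallest p, Cox7c was the common subunit with the largest difference between liver and kidney, 1.62 on the log2 scale (SE 0.35, adjusted p = 0.015 by edgeR), followed by Atp5j at 1.46 and Ndufv3 at 1.08. Against lung, Uqcr11 differed by 1.42 (SE 0.28, adjusted p = 0.0089 by edgeR), Atp5e by 1.41 and Ndufc1 by 1.37. With length and GC correction 8 and 9 genes passed, and with the replicate block 8 (7 higher in liver, and Cox7a2l lower) and 11. Under the length and GC correction Ndufv3 fell to 0.39 (adjusted p = 0.22 by edgeR) against kidney, and Uqcr11 to 0.52 (adjusted p = 0.14) and Atp5e to 0.64 (adjusted p = 0.089) against lung, and these calls were lost. Under the replicate block Cox7c and Atp5j lost the call against kidney (adjusted p = 0.0506 and 0.0513 by edgeR). The liver to kidney count fell to 6 without kidney CCNE-TA 2, 11 without liver CCNE-TA 1, 14 without liver TA 1, 15 without kidney TA 1 and 16 without kidney TA 3 or liver TA 3. The liver to lung count fell to 11 without lung TA 1 or TA 2 and to 15 without liver CCNE-TA 1 or lung CCNE-TA 1. Both interactions use the same 6 liver libraries.

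The 6 tissue isoforms tested between TA tissues were all lower in liver than in lung. In TA controls Cox4i2 was at 57.8, 59.4 and 39.9 RPKM in lung, 3.83, 3.08 and 1.75 RPKM in kidney and 0.077, 0.13 and 0.13 RPKM in liver, in that order without overlap. Its share of the summed Cox4i1 and Cox4i2 reads, scaled by length, was 16.0% to 19.9% in lung and at most 0.39% in kidney and 0.018% in liver. Ndufa4l2, a paralog of Ndufa4 known to respond to low oxygen, ran in the same order at 24.5 to 27.4, 6.65 to 7.49 and 2.19 to 2.97 RPKM. Cox7a1 was highest in TA kidney at 89.2 to 105 RPKM, above lung at 19.1 to 42.3 RPKM and liver at 3.38 to 8.998 RPKM. Cox6b2 was at 15.8 to 25.97 RPKM in kidney and at 11.3 to 21.4 RPKM in lung, which overlapped, and at 0.22 to 1.16 RPKM in liver. Cox8b overlapped between kidney (22.9 to 66.4 RPKM) and lung (31.2 to 57.3 RPKM) too. Cox7b2 and Cox8c had at most 4 counts in any library.

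Cox6b2 (chr7:4751792-4753094, minus strand) had the largest fold change of the set in liver. Its raw counts were 75, 202 and 373 in CCNE-TA livers and 18, 2 and 4 in TA livers, or 1.90, 4.74 and 11.4 CPM against 0.29, 0.054 and 0.11 CPM. The lowest CCNE-TA liver was above the highest TA liver, and the edgeR log2 fold change was 5.18 (SE 0.82, adjusted p = 0.0061); with 2 to 18 counts in the controls this fold depends on few reads, and the gene passed the low-count filter through its CCNE-TA libraries. The call was kept under the length and GC correction (log2 fold change 4.24, edgeR adjusted p = 0.016) and in every other alternative except the removal of TA 2 and TA 3 together (adjusted p = 0.16). Over the 14 alternatives the log2 fold change ran from 4.24 to 6.10.

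Cox6b2 remained a small part of the pair even in CCNE-TA liver: its length-scaled share of Cox6b1 and Cox6b2 was 0.53%, 1.65% and 3.12%, against 0.21%, 0.035% and 0.069% in TA liver. In kidney the share was 3.68%, 3.89% and 3.19% in CCNE-TA against 1.72%, 1.82% and 1.06% in TA, again without overlap. The kidney levels were 31.5, 24.3 and 19.98 CPM against 13.4, 12.8 and 8.19 CPM, with a log2 fold change of 1.14 (SE 0.26, unadjusted p = 0.0017, edgeR adjusted p = 1.0 after rounding; DESeq2 adjusted p = 0.053). In lung Cox6b2 was at 7.75, 11.3 and 11.9 CPM against 12.8, 13.5 and 7.28 CPM, with full overlap. The effect in liver exceeded that in kidney by 4.01 (SE 0.79, adjusted p = 0.011 by edgeR) and that in lung by 5.25 (SE 0.79, adjusted p = 0.0028 by edgeR) on the log2 scale, in all 18 and all 17 alternatives respectively.

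Markers measured beside Cox6b2 were as follows. Of 8 male germ cell genes, 7 were at 0 in all 6 livers and their sum was at most 0.061 CPM; their sum in kidney was at most 0.98 CPM, in a TA library. The 8 genes of proliferating cells summed to 30.2, 47.0 and 82.8 CPM in CCNE-TA livers 1 to 3 and to 5.11 to 13.98 CPM in TA livers, and 8 of 8 rose. In kidney they summed to 134, 44.4 and 54.6 CPM against 16.6 to 17.9 CPM, and in lung to 85.5 to 172 CPM against 37.5 to 55.2 CPM; their part in the Cox6b2 result was not tested. The 8 kidney tubule genes summed to 17.3 to 36.0 CPM in CCNE-TA livers, 18.6 CPM in TA liver 1 and 0.38 and 0.40 CPM in TA livers 2 and 3. Their part was not tested either.

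In lung, Cox8b and Cox7a1 were lower in every CCNE-TA library. Cox8b was at 4.996, 7.57 and 6.50 CPM in CCNE-TA and 30.1, 16.3 and 22.9 CPM in TA, with a log2 fold change of -1.86 (SE 0.28, adjusted p = 0.92 by edgeR; DESeq2 adjusted p = 1.9e-06). Cox7a1 was at 4.46, 7.77 and 8.27 CPM against 27.1, 12.2 and 17.6 CPM, with a log2 fold change of -1.47 (SE 0.37, adjusted p = 1.0 after rounding by edgeR; DESeq2 adjusted p = 0.021). Their shares of the isoform pair were 4.92% to 5.18% against 9.98% to 17.5% for Cox8b with Cox8a, and 9.05% to 10.8% against 15.7% to 27.4% for Cox7a1 with Cox7a2. The partners Cox8a and Cox7a2 were not called.

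The sum of the brown fat list moved with these isoforms: its 9 genes summed to 98.1, 138 and 191 CPM in CCNE-TA lungs and to 343, 207 and 357 CPM in TA lungs, without overlap, although none of the 8 tested passed. Fabp4 was the largest part of each sum, at 47.1, 100.5 and 151.3 CPM against 232.9, 132.7 and 168.6 CPM, and overlapped. Dio2, Pparg, Plin1 and Cpt1b overlapped too, while Ucp1, Cidea, Elovl3 and Adipoq did not. The 7 hepatocyte genes were also lower without overlap, at 297, 128 and 57.98 CPM in CCNE-TA lungs and 442, 666 and 2343 CPM in TA lungs. The 9 heart muscle genes summed to 483 to 707 CPM against 601 to 1367 CPM, which overlapped, and the 9 skeletal muscle genes to 12.6 to 791 CPM against 13.9 to 1773 CPM. Cox6a2, the third isoform known from striated muscle, was at 16.4, 25.9 and 18.9 CPM against 37.4, 20.1 and 32.9 CPM and overlapped. The part of fat, muscle or liver tissue in the lung samples was not tested.

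In liver, Cox6a2 and Cox8b followed 2 libraries rather than genotype. Cox6a2 was at 0.15, 0.14 and 3.34 CPM in CCNE-TA livers and 0.11, 3.11 and 0.26 CPM in TA livers, so CCNE-TA 3 and TA 2 held nearly all of it. Cox8b was at 0.15, 0.42 and 1.93 CPM against 0.096, 1.70 and 0.057 CPM, high in the same 2 libraries. These are the livers with the highest sums of skeletal muscle genes, 110 and 243 CPM, and of brown fat genes, 69.2 and 232 CPM. Most of each brown fat sum was Elovl3 alone, at 39.6 and 217 CPM in the same order. Those sums therefore mainly followed Elovl3, and whether these livers held brown fat was not tested. Liver TA 3 had the next highest skeletal muscle sum, 80.5 CPM, with Cox6a2 at 0.26 CPM and Cox8b at 0.057 CPM. The part of muscle in these isoform values was not tested. Cox7a1 was at 2.92, 2.49 and 5.77 CPM against 0.84, 2.27 and 0.88 CPM, just without overlap, with a log2 fold change of 1.49 (SE 0.51, adjusted p = 0.058 by edgeR). Ndufa4l2 was at 2.54, 2.16 and 3.87 CPM against 1.16, 1.59 and 1.48 CPM, with 1.02 (SE 0.35, adjusted p = 0.060 by edgeR).

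The isoform shares were compared between genotypes by a two-sided exact permutation test in the 19 combinations of pair and tissue with counts; 3 libraries against 3 cannot go below p = 0.1. In this exact permutation test the smallest p, 0.1, was reached by Cox6b2 in liver and kidney, Cox4i2 in liver, and Cox7a1, Cox8b and Ndufa4l2 in lung, where groups did not overlap (adjusted p = 0.32 for each by Benjamini-Hochberg).

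**Figure D4:**
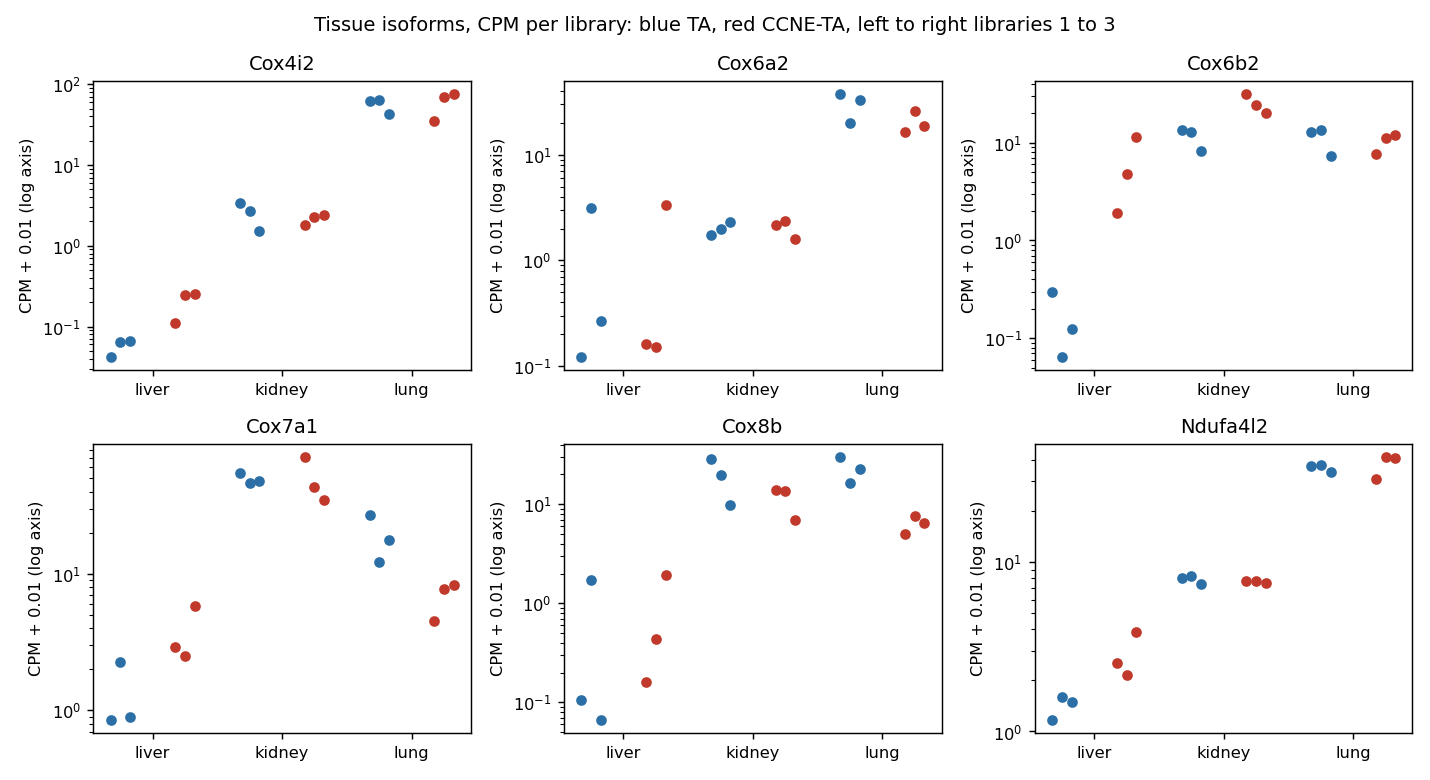
CPM (plus 0.01, log axis) of 6 tissue isoforms in each library, TA in blue and CCNE-TA in red, libraries 1 to 3 from left to right in each group. Cox6b2 is higher in all CCNE-TA livers and kidneys, Cox7a1 and Cox8b are lower in all CCNE-TA lungs, and Cox6a2 in liver is high in TA 2 and CCNE-TA 3.

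A pattern that crossed genotype and tissue was seen in single libraries. Kidney CCNE-TA 1, kidney TA 1 and liver CCNE-TA 3 were low for the same common subunits. They held 20352770, 20697868 and 26214869 counts, each the lowest of its group. Their TMM factors over the 18 libraries, 1.30, 1.30 and 0.74, were the highest of their tissues. The part of depth and scaling in the pattern was not tested. Cox5a was at 119 CPM in kidney CCNE-TA 1 against 448 and 365 CPM in the other 2 of its group, at 117 against 365 and 323 CPM in kidney TA, and at 41.8 against 86.8 and 145 CPM in CCNE-TA liver. Ndufa4 was at 310 against 882 and 874 CPM, at 316 against 859 and 874 CPM, and at 117 against 341 and 460 CPM. Of 79 genes compared (isoforms left out), 10 were below 0.6 of the mean of the other 2 libraries in both kidney libraries, and all 10 were below it in liver CCNE-TA 3: Atp5a1, Atp5b, Atp5f1, Atp5g3, Cox5a, Cox7a2, Cox7a2l, Ndufa4, Ndufv1 and Uqcrh. In liver CCNE-TA 3 taken alone, 16 of the 79 genes were below this limit.

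At the same time 7 genes were at or above that mean in both kidney libraries, and 6 of them in the liver library too: Cox6b1, Ndufa3, Ndufa5, Ndufb4, Ndufb7 and Ndufs8. In the liver library taken alone, 19 of the 79 genes were at or above it. The shares over all genes are not given here for either count. Deviations from the group means on the log2(CPM + 0.5) scale had a Pearson r of 0.83 between the 2 kidney libraries over 85 genes, of 0.91 between kidney TA 1 and liver CCNE-TA 3 and of 0.77 between kidney CCNE-TA 1 and liver CCNE-TA 3 over 83 genes. Over all genes these were 0.38, 0.36 and 0.23. The liver fold changes of the 83 genes ran with the deviation of kidney TA 1 at r = 0.62, and at 0.43 with liver CCNE-TA 3 left out of the fold change. The same values over all genes were 0.285 and 0.202. The fold change and the deviation share no library. These are descriptions across genes, which are not replicates, and the cause of the shared pattern was not tested.

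**Figure D5:**
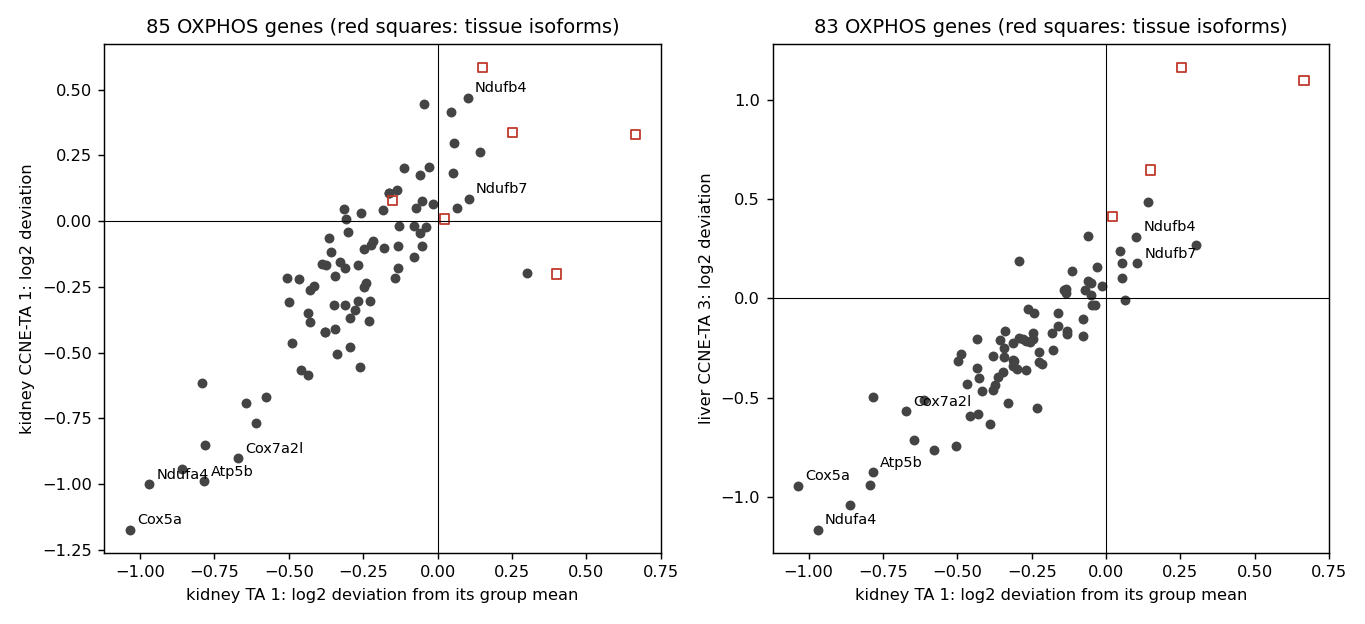
Deviation of each gene from its group mean, in log2(CPM + 0.5), in kidney TA 1 against kidney CCNE-TA 1 (left) and against liver CCNE-TA 3 (right), with tissue isoforms as red squares. Points follow a rising line in both panels, with Cox5a and Ndufa4 low and Ndufb4 high in all 3 libraries.

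Leaving out both kidney libraries changed no call in kidney, where none of 85 genes passed with edgeR, 4 had an unadjusted p under 0.05 and the median was -0.07; it lowered the count of genes with a larger effect in liver than in kidney from 25 to 14. Leaving out liver CCNE-TA 3 raised the count in liver from 36 to 42 genes higher and left 1 lower. Lung CCNE-TA 1 and TA 3 formed another pair, with r = 0.83 over 85 genes and 0.55 over all genes. They were the lung libraries with the most and the fewest counts, 155323865 and 41597623. Kidney TA 1 and lung TA 3 had r = -0.26 over 85 genes and -0.07 over all genes.

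Genes that work with the set were examined in the same liver fit, by lists chosen for their function. Their counts stand beside the 13.7% of all genes that rose and the 14.8% that fell, and most of the lists are short. Complex II, whose 4 subunits are all nuclear and fall outside the symbol rule, had 2 genes that fell and none that rose, at a median of -0.45. Sdha, the flavoprotein subunit, was at 199, 289 and 133 CPM in CCNE-TA livers against 472, 572 and 569 CPM, and fell by 1.37 on the log2 scale (SE 0.31, adjusted p = 0.015 by edgeR). Sdhd, a membrane anchor, fell by 1.11. Of 3 tested genes of cytochrome c and cytochrome c1 1 rose: Cycs, somatic cytochrome c, by 0.74 (SE 0.20, adjusted p = 0.027 by edgeR).

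Complex IV assembly genes went both ways, 7 of 19 up and 4 down. Cox17, a copper chaperone, was at 72.0, 51.8 and 77.1 CPM against 18.9, 19.8 and 20.02 CPM and rose by 1.78 (SE 0.20, adjusted p = 0.0023 by edgeR), and Cox20 rose by 1.67. Taco1, a translational activator of mitochondrial COX1, was at 4.49, 5.13 and 3.65 CPM against 19.2, 22.5 and 26.5 CPM and fell by 2.36 (SE 0.22, adjusted p = 0.0011 by edgeR). In complex III assembly Uqcc2 rose by 1.33 and Uqcc1 fell by 0.66 among 5 genes. In complex I assembly outside the Nduf symbols, 1 of 8 genes fell, Nubpl, an iron-sulfur carrier for complex I, by 2.23, and none rose. Of 5 genes of complex V assembly and its inhibitor 2 rose, Usmg5 by 1.404 and Atpif1, the inhibitor, by 1.14. With the length and GC correction Cox17, Cox20, Taco1, Uqcc1, Nubpl, Sdha, Sdhd and Cycs still passed, and Uqcc2, Usmg5 and Atpif1 did not.

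Of 12 regulators of mitochondrial biogenesis 3 fell and none rose, at a median of -0.49. Gabpa, the DNA-binding subunit of GABP, was at 17.9, 22.4 and 12.8 CPM in CCNE-TA livers against 39.4, 41.4 and 39.7 CPM and fell by 1.18 (SE 0.22, adjusted p = 0.0089 by edgeR). Pprc1 fell by 0.77 and Tfb1m by 0.70. Among 77 mitochondrial ribosomal protein genes 18 rose and 5 fell, at a median of 0.13; with the length and GC correction 9 rose and 10 fell, at -0.06, near the 9.93% and 10.9% over all genes. Mrpl23 (1.52), Mrpl54 (1.395) and Mrps33 (0.97) had the smallest p, with edgeR adjusted p from 0.0032 to 0.0066. No gene of these 8 lists passed in kidney or lung with edgeR, where 0 and 1 of their tested genes had an unadjusted p under 0.05.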

How the data were processed

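RNA from whole liver, kidney and lung was sequenced from TruSeq RNA kit v2 libraries (100 to 200 ng of RNA), a kit that does not mark strand. The authors deposited 1 table of raw read counts per gene symbol for all 18 libraries. Per the submitters' processing notes, the tools were TopHat2 2.0.14, Bowtie2 2.2.6 and featureCounts 1.4.6 with build mm10; the annotation, strand setting and treatment of multi-mapped reads are not given in the sources used here. Reads that paralogs and pseudogenes of these short genes share could therefore be split or lost.

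The genes, lists and tests were chosen with earlier results of these data known. The gene set follows the symbol rule. Counts cover the whole set, but the values of 1 gene are not reported here. In each role the text names the genes of smallest p, the isoforms and, chosen after their values were seen, the examples that were not called. The whole table was fitted for each tissue alone with edgeR 4.0.16 in R 4.3.3: TMM factors, filterByExpr, a robust quasi-likelihood F test and Benjamini-Hochberg adjustment over all tested genes, called at adjusted p under 0.05. Interactions came from 1 fit of 18 libraries, and tissue contrasts from 1 fit of the 9 TA libraries. DESeq2 1.42.0 was the alternative tool. Transcript lengths and GC content came from GENCODE, with RefSeq synonyms used to match symbols (98.5% of symbols had a length). The correction used natural splines with 4 degrees of freedom each per library. The scripts were tested on simulated data. A total of 3 counts in 1 library corresponds to 0.0188 to 0.137 CPM.

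Libraries carry numbers 1 to 3 in each group. Deviations of same-numbered kidney libraries from their group means correlated at 0.308, 0.486 and 0.34, so the numbers were taken to pair the kidney libraries, a rule on the data since the labels name no shared animal or batch. In liver (0.2, -0.002 and 0.083) and lung (-0.477, -0.105 and -0.592) they did not. The main fits, those of kidney included, did not use this pairing. It entered only through the replicate block, which was 1 of the alternatives. In the interaction fit the block was applied within each tissue, liver and lung included, so no interaction fit paired the kidney libraries only.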

Additional observations from a re-analysis of the deposited data

Results flagged for a closer look

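Differences of the CCNE-TA effect between tissues, by the edgeR interaction test in 1 fit of 18 libraries, are the results to look at again. The effect was larger in liver than in kidney for 25 genes, with Cox6b2 at a log2 difference of 4.01, Cox7c at 1.62, Atp5j at 1.46 and Ndufv3 at 1.08. It was larger in liver than in lung for 24 genes, with Cox6b2 at 5.25, Uqcr11 at 1.42 (1.415), Atp5e at 1.41 (1.405) and Ndufc1 at 1.37. With the length and GC correction Ndufv3 (0.39), Uqcr11 (0.52) and Atp5e (0.64) lost these calls, and the other 3 against kidney and 2 against lung kept them. With the replicate block Cox7c and Atp5j lost the call against kidney (adjusted p = 0.0506 and 0.0513 by edgeR).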

How the results depend on the processing

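In liver, 36 genes rose and 2 fell. The count that rose was 11 with the length and GC correction, 0 without TA 2 and TA 3, and 22 to 42 when 1 library was left out. The count that fell was 4 with DESeq2, 4 with the length and GC correction, 1 with an Xist covariate, 1 with upper quartile scaling, 0 without TA 2 and TA 3, and 0 to 7 when 1 library was left out. In lung, DESeq2 called 2 genes lower against 0 with edgeR. The effect differed between liver and kidney for 25 genes, but for 8 with the length and GC correction, 14 without kidney CCNE-TA 1 and TA 1 (chosen after seeing the data), and 6 to 27 when 1 library was left out. It differed between liver and lung for 24 genes, but for 9 with that correction and 11 to 31 when 1 library was left out. The cause was not tested. With the replicate block these counts were 8 and 11, Cox7c and Atp5j losing the liver to kidney call, and in liver 29 rose and 3 fell; no kidney or lung gene was called. For single genes and shares, 1834 alternative values kept their sign and side of the threshold, 66 lost the call and 21 gained it. Another 162, called neither before nor after, changed sign, mostly in kidney and lung, and no called value did. With 3 libraries a group, the exact test of the shares cannot pass.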
